A study of Homo sapiens with 3 samples.

Results

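The genes that supply deoxynucleotides for DNA synthesis were followed in CAMA-1, a breast cancer cell line that expresses the estrogen receptor, grown as spheroids with the CDK4/6 inhibitor ribociclib. The group holds 9 of the 22492 named genes in the count tables, chosen by symbol: RRM1, RRM2 and RRM2B, TYMS, TK1 and DTYMK, and DUT, DCTPP1 and SAMHD1. RRM2 was picked because earlier results of these data showed it higher in sensitive than in resistant cells of the coculture, so that contrast is given for RRM2 as a description only. Spheroids were seeded with 2000 cells that were 100% sensitive (sensitive monoculture), 50% sensitive and 50% resistant (coculture) or 0% sensitive (resistant monoculture). All were treated with 1 µM ribociclib for 11 days, so no group was free of drug, and cells were frozen alive before capture. Sensitive cells carried the mVenus transgene and the resistant subline, derived by long culture with ribociclib, carried mCherry. Each composition was 1 single-cell library prepared with 10X Genomics 3' reagents, in which RNA molecules are counted as unique molecular identifiers (UMIs). The sensitive and resistant cells of the coculture therefore shared 1 library.

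DNA replication needs the 4 deoxynucleotides in balance. Ribonucleotide reductase makes their precursors by reducing ribonucleotides. Its large catalytic subunit, RRM1, pairs with the S-phase radical subunit RRM2 or with RRM2B, a p53-inducible small subunit that also serves non-dividing cells. Thymidylate reaches DNA by synthesis from deoxyuridylate (TYMS) or by salvage of thymidine (TK1), and DTYMK adds the next phosphate on both routes. DUT and DCTPP1 clear dUTP and aberrant cytosine nucleotides from the pool, and SAMHD1 degrades deoxynucleotide triphosphates. Many of these genes are E2F targets whose transcription is tied to entry into S phase, and CDK4/6 inhibitors hold RB in its active form, which keeps E2F target genes repressed.

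The deposited annotation held 3329 monocultured and 2059 cocultured sensitive cells and 6292 cocultured and 7557 monocultured resistant cells, with 96247731, 70896822, 199632131 and 270891547 UMIs in all. Median depth per cell ran from 27622 to 35443 UMIs. Luminal markers KRT8, KRT18, KRT19, EPCAM, GATA3 and ESR1 were present in all 4 populations, from 14.2 CPM (UMIs of a gene per 1000000 UMIs) for ESR1 to 3671 CPM for KRT19. Of 7 markers of other cell types, PTPRC, KRT5 and COL1A2 were at 0 to 0.0282 CPM, VWF at 0.0665 to 0.291 CPM, ACTA2 at 0.0701 to 1.255 CPM and COL1A1 at 2.40 to 3.61 CPM, and KRT14 was at 3.59 CPM in sensitive monoculture and 0.222 to 0.711 CPM elsewhere. Pairs of libraries shared 8, 7 and 17 barcode sequences among annotated cells, and 48, 34 and 60 among all barcodes. With 1 library per condition no test was possible, and all intervals are 95% and cover counting error only. A p-value is not given for any difference.

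RRM2, TYMS and TK1 were the members that differed most between sensitive cells with and without resistant cells, and the promoters of these 3 genes are shown to place them in the genome beside their values. The sequences are from RefSeq, each runs from 250 bases before to 50 bases after a transcription start site, and each was placed on GRCh37 by an exact match. Capitals mark CCAAT, the box bound by NF-Y, or its reverse complement ATTGG, and the E2F-type element TTTCCCGC, here as its reverse complement GCGGGAAA. The motifs searched on both strands were CCAAT and the E2F-type letters TTTGGCGC, TTTCCCGC, TTTCGCGC and TTTGCCGC.
RRM2 promoter, chr2:10262616-10262915, plus strand: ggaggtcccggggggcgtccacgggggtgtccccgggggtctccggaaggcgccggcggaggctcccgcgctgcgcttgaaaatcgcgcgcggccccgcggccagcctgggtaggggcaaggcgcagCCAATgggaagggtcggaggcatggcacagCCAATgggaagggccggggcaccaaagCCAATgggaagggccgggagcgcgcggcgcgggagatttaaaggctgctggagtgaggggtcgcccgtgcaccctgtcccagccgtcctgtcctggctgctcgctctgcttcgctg
TK1 promoter, chr17:76183084-76183383, minus strand: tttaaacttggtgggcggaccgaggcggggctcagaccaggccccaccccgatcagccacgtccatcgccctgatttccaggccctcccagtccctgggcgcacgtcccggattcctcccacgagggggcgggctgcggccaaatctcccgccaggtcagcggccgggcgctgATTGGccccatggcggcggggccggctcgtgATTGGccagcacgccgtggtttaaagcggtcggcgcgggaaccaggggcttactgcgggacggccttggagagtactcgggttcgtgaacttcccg
TYMS promoter, chr18:657403-657702, plus strand: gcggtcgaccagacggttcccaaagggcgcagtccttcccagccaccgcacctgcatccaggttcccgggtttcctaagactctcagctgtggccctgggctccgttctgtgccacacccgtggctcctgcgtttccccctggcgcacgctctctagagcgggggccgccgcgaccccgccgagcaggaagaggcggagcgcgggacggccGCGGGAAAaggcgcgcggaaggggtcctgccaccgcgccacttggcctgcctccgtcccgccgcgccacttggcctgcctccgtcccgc

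The RRM2 promoter held 3 CCAAT boxes, starting at -123, -93 and -66 from the start site, and each was followed by the same letters gggaaggg. The TK1 promoter held 2 CCAAT boxes on the opposite strand, at -77 and -46. The TYMS promoter held no CCAAT and 1 E2F-type match, at -39. CCAAT is common, being present in 34.6% of 35116 RefSeq promoters of this length, whereas the E2F-type letters were present in 3.31%. The promoters of RRM1, DTYMK and SAMHD1 held 1, 2 and 2 CCAAT boxes and those of DUT and DCTPP1 held none, with no E2F-type match in any of these 5. The RefSeq start sites of RRM1 and DCTPP1 lay 114 and 230 bases from the canonical start of the gene, and those of the other 6 matched genes on it. These matches describe the letters only, since no binding was measured.

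The level of a gene in a population depends both on how many cells are in S or G2M phase and on the level in such a cell, and the phases deposited by the authors allowed these to be set apart. S cells made up 5.29% of sensitive cells in monoculture (176 cells, 4.55 to 6.10%) and 22.2% in coculture (458 cells, 20.5 to 24.1%). In resistant cells they made up 25.9% in coculture (1627 cells) and 28.6% in monoculture (2162 cells). G2M cells made up 5.71, 22.5, 24.5 and 21.4% in the same order. All cocultured sensitive cells had a UMI of their transgene, against 67.8% of monocultured ones, so these populations were not filtered alike. The small number of S cells in sensitive monoculture is what limits the precision of levels per S cell. TYMS, RRM1 and RRM2 are in the S list commonly used with Seurat. The list behind the deposited phases is not given in the sources used here, so S cells may in part have been chosen by these 3 members, and phases were also called anew without them.

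**Figure D1:**
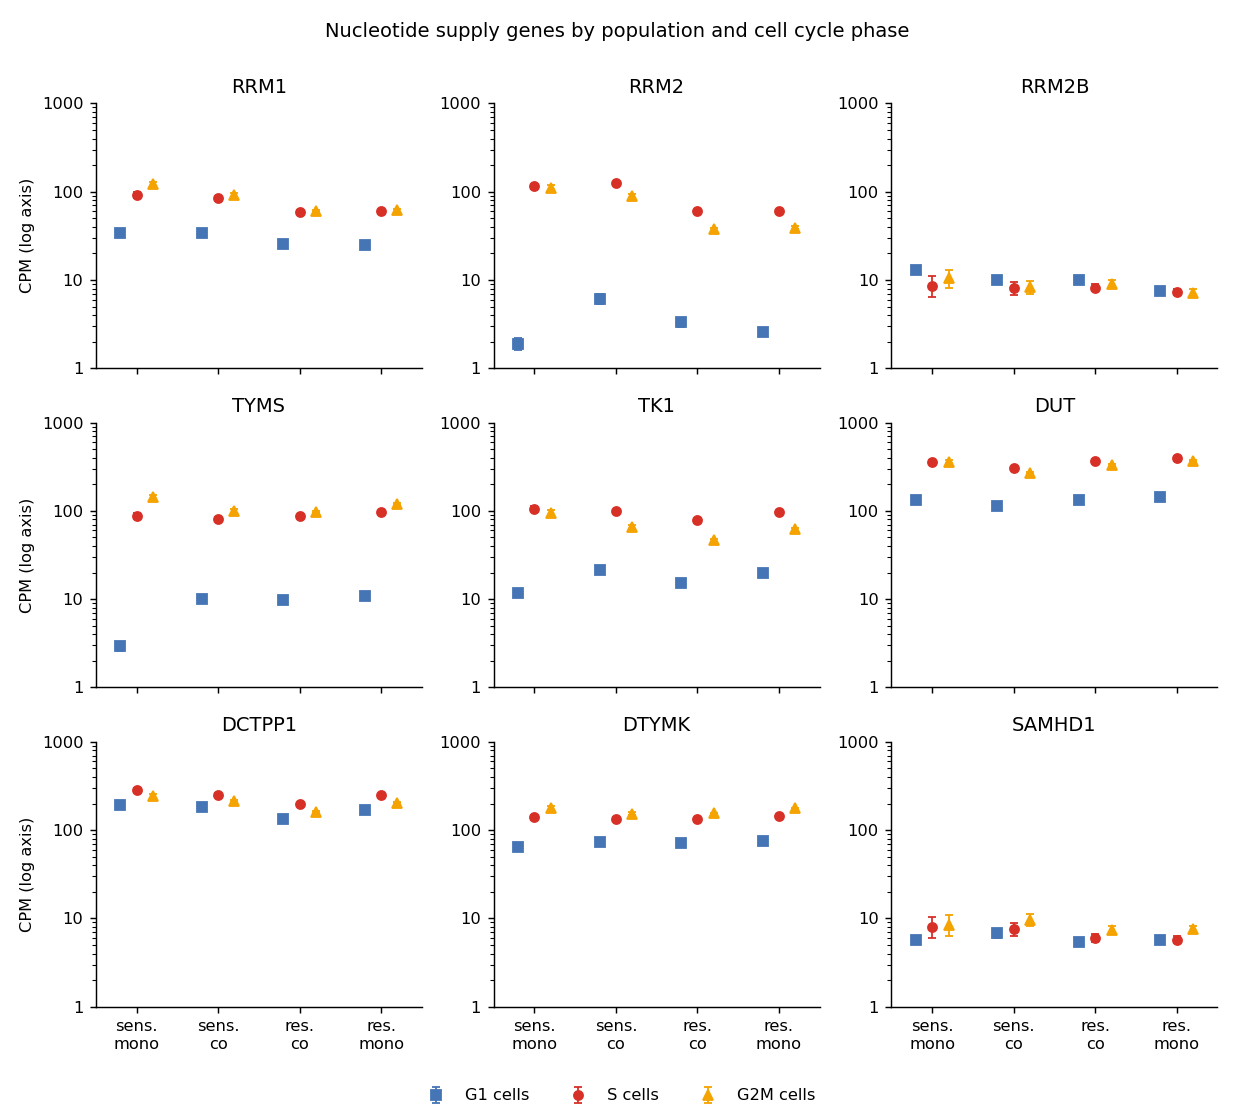
Level of each of the 9 genes (CPM, log axis) in sensitive (sens.) and resistant (res.) cells of monoculture (mono) and coculture (co), with G1 cells as squares, S cells as circles and G2M cells as triangles and 95% counting intervals as bars. RRM2 in S cells sits near 120 CPM in both sensitive populations and near 60 CPM in both resistant ones, while RRM2B stays between 7.10 and 13.1 CPM in all phases.

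RRM2 (chr2:10260825-10351851 of GRCh37, plus strand) encodes the small subunit whose supply rises and falls with S phase. Over all cells its level was 17.4 CPM in monocultured (16.6 to 18.3) and 54.6 CPM in cocultured (52.9 to 56.4) sensitive cells, and 27.9 CPM in cocultured (27.2 to 28.7) and 28.1 CPM in monocultured (27.5 to 28.8) resistant cells. The resistant populations did not differ beyond counting error, and sensitive cells lay below them in monoculture and above them in coculture. In coculture, RRM2 was 3.13-fold higher in sensitive cells than in monoculture (2.96 to 3.32), a larger fold than that of 99.2% of genes. The level in cocultured sensitive cells also entered the contrast that chose RRM2, so this fold and its rank are a description only. Annotation lists 3 pseudogenes of RRM2, 2 of TYMS and 8 of DUT, so reads shared with these could not be told apart here. The genes ENOSF1, ZNF771 and TLDC2 overlap TYMS, DCTPP1 and SAMHD1 on the opposite strand, and their part in the counts was not tested.

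Within S cells by the deposited phases the order was different. RRM2 was at 115 CPM in monocultured sensitive cells (107 to 123) and at 126 CPM in cocultured sensitive cells (121 to 131), against 60.4 CPM in cocultured resistant cells (58.4 to 62.5) and 60.1 CPM in monocultured resistant cells (58.4 to 61.8). An S cell thus yielded 4.32, 4.69, 2.04 and 2.29 RRM2 UMIs on average in these populations. The 2 sensitive populations lay close together, with a fold of 1.10 (1.01 to 1.19) for coculture over monoculture, and the resistant populations did not differ beyond counting error, with a fold of 1.01 (0.962 to 1.05). In G2M cells RRM2 was at 110 and 88.3 CPM in sensitive cells of monoculture and coculture and at 37.6 and 39.1 CPM in resistant cells of coculture and monoculture. By the deposited phases, both sensitive populations thus lay above both resistant ones in S and in G2M cells. Median depth in S cells was 39100.5 and 37724 UMIs for monocultured and cocultured sensitive cells and 33446 and 38660.5 UMIs for cocultured and monocultured resistant cells, and its part in these levels was not tested.

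The value of 1.10 depended on how S cells were called. With calls made without the 3 members on cells thinned to 5000 UMIs, 437 cells of sensitive monoculture and 578 of sensitive coculture were called S, RRM2 was at 49.1 and 91.5 CPM in them, and the fold was 1.87 (1.71 to 2.04). The same calls at full depth, an alternative chosen after the thinned calls had been seen, gave 207 and 503 S cells, 94.6 and 109 CPM, and a fold of 1.15 (1.06 to 1.26). With full-depth calls the difference between lineages in coculture was 2.15-fold (2.04 to 2.28), and with thinned calls it was 2.10-fold (1.98 to 2.22).

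G1 cells held little RRM2. Its level there was 1.90 CPM in monocultured (1.61 to 2.22) and 6.13 CPM in cocultured (5.36 to 6.98) sensitive cells, and 3.33 CPM in cocultured (2.97 to 3.72) and 2.60 CPM in monocultured (2.32 to 2.89) resistant cells. All 4 intervals are separate, and the fold of coculture over monoculture in sensitive G1 cells was 3.23 (2.62 to 3.99). After thinning to 5000 UMIs, 0.878% of G1 cells of sensitive monoculture had an RRM2 UMI, against 3.25% of those of their coculture, and 1.82% and 1.40% of resistant G1 cells with and without sensitive cells. No cell type that lacks RRM2 was present to set a background for these shares, and the part of free RNA or of misassigned phases in them was not tested. The G1 cells supplied 9.36% of the RRM2 UMIs of sensitive monoculture and 5.84% of those of sensitive coculture.

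Phase shares are taken here as shares of UMIs and not of cells. S cells supplied 6.87% of all UMIs in sensitive monoculture and 24.1% in sensitive coculture. If sensitive cells kept their monoculture level in each phase and took only the coculture's phase shares, their RRM2 level would be 55.0 CPM, and the level observed was 54.6 CPM. The change in phase shares alone thus covered 100.6% of the log fold, or 86.9% when the coculture's levels per phase were used in its place. With the phase calls made anew the share was 78.0% on thinned cells and 96.7% at full depth. The within-phase fold of 0.993 joined folds of opposite direction by the deposited phases. These were 3.23 (2.62 to 3.99) in G1, 1.10 (1.01 to 1.19) in S and 0.80 (0.734 to 0.876) in G2M cells. A different picture came from the monocultures. With the phase shares of resistant monoculture, sensitive cells would hold 60.2 CPM, whereas resistant cells held 28.1 CPM, which is 0.468-fold within phases. This value used the deposited phases and also joined folds of opposite direction. Resistant over sensitive monoculture was 1.37 (1.13 to 1.66) in G1, 0.523 in S and 0.355 in G2M cells. Thinned calls gave 1.595, 0.936 and 0.432 in that order, and full-depth calls 1.26, 0.556 and 0.390.

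**Figure D2:**
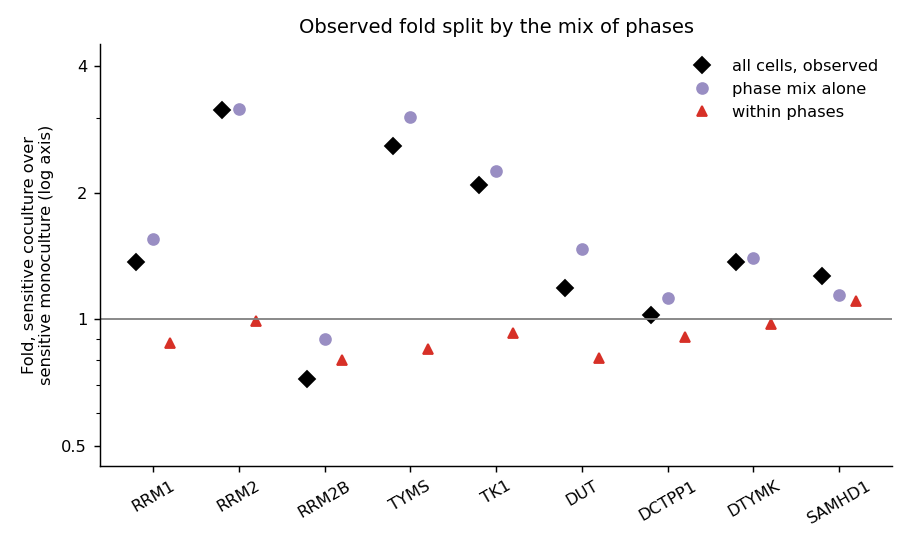
Fold of sensitive coculture over sensitive monoculture (log axis) for each gene, as observed over all cells (diamonds), as given by the change in phase shares alone at monoculture levels (circles), and as left within phases (triangles), the product of the latter pair being the first. For RRM2 the observed fold of 3.13 and the phase-share fold of 3.16 coincide, and the within-phase fold is 0.993. That value joins 3.23 in G1, 1.10 in S and 0.80 in G2M cells. Phase shares are shares of UMIs.

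Cells were also matched without any phase call, by the UMIs of the S list without the 3 members per 5000 UMIs, in 5 bins. In the highest bin (9 to 33 S-list UMIs), RRM2 was at 175 CPM in 138 cells of sensitive monoculture (164 to 187), 161.5 CPM in 374 cells of sensitive coculture (155 to 168), 77.8 CPM in 1261 cells of resistant coculture (75.2 to 80.5) and 81.6 CPM in 1552 cells of resistant monoculture (79.3 to 83.9). The fold of coculture over monoculture in sensitive cells was 0.923 (0.855 to 0.996) there. In the 4 lower bins it was 4.52, 3.34, 3.57 and 1.78 from the lowest up. Those bins held unequal shares of G2M cells, from 1.37% in monoculture against 9.36% in coculture in the lowest to 19.6% against 40.9% in the fourth. Between the lineages of the coculture the fold was 2.07, 2.02, 2.81, 2.11 and 2.08 over the 5 bins.

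**Figure D3:**
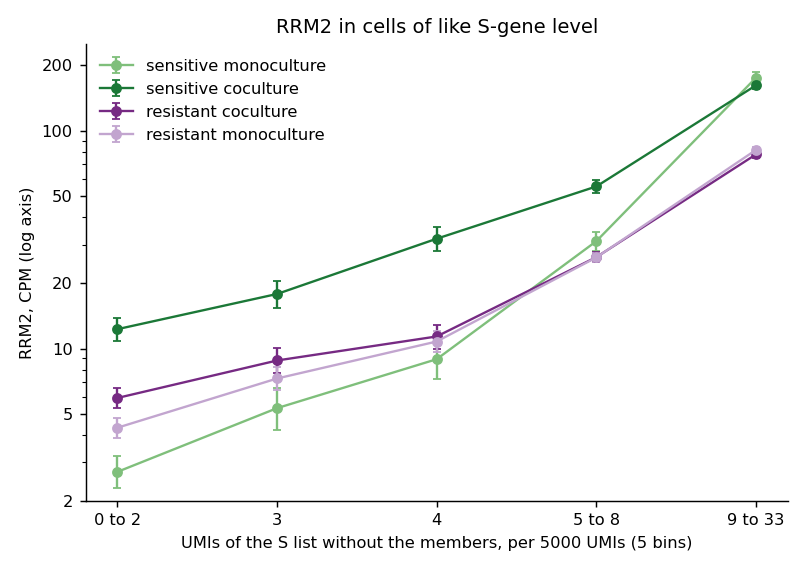
RRM2 (CPM, log axis) in cells grouped by the number of UMIs of the S list, without TYMS, RRM1 and RRM2, per 5000 UMIs, with 1 line per population and 95% counting intervals. The sensitive lines cross before the highest bin, where they lie at 175 CPM in monoculture and 161.5 CPM in coculture, above the resistant lines at 77.8 and 81.6 CPM.

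Between the lineages that shared the coculture library, RRM2 was 1.96-fold higher in sensitive cells over all cells (1.88 to 2.04), 2.08-fold in S cells (1.97 to 2.20), 2.35-fold in G2M cells (2.20 to 2.52) and 1.84-fold in G1 cells (1.55 to 2.20). This is the contrast that chose RRM2, and 7.57% of all genes were at least 1.5-fold higher over all cells and 6.47% in S cells. The part of RNA from the other lineage in it was not tested, and subtracting 10% resistant RNA from the sensitive cells gave 2.26 in S cells. FABP7, a gene of sensitive cells, was at 14.4 CPM in cocultured resistant cells and 0.808 CPM in monocultured ones, a gap of 4.71% of the 289 CPM in cocultured sensitive cells. In the monocultures, which did not choose RRM2, the fold of resistant over sensitive cells was 0.523-fold in S cells (0.485 to 0.565) and 0.355-fold in G2M cells (0.327 to 0.385). These are separate libraries, so library and lineage cannot be told apart there. With phase calls made anew on thinned cells the S-cell value was 0.936, and at full depth 0.556.

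In the deposited clusters, which are named here by number only, RRM2 was highest where S and G2M cells gathered. Cluster 7 held cycling sensitive cells of both cultures, with RRM2 at 155 CPM in monoculture (232 cells, 35.8% S and 63.8% G2M) and 139.8 CPM in coculture (617 cells, 45.9% S and 53.7% G2M). The resistant cluster 1, at least 90.3% S cells, had 69.5 CPM in coculture and 77.5 CPM in monoculture, and cluster 2, at least 97.9% G2M cells, had 48.4 and 49.8 CPM. A small resistant cluster, number 10, reached 106 CPM in coculture and 119.9 CPM in monoculture, with 93.8 and 96.6% S cells. In clusters 4, 8 and 12, with 3.75% S cells or fewer, monocultured sensitive cells had 3.19, 1.86 and 0.771 CPM, the last from 3 UMIs. The 84 cocultured sensitive cells of cluster 4 had 6.43 CPM (3.68 to 10.5), against 2.75 to 3.68 CPM as the interval of the monocultured ones, so the intervals touch. Cluster 3, shared by 267 monocultured and 1087 cocultured sensitive cells, had 11.2 and 11.0 CPM, which do not differ beyond counting error, and 91 resistant cells of the coculture in it had 9.91 CPM (6.82 to 13.9). Clusters were built from these genes among others, so these levels describe the clusters and are no test of them.

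RRM1 (chr11:4115937-4160162, plus strand), the catalytic subunit, moved less with phase than RRM2. Its level was 44.3 CPM in monocultured (42.9 to 45.6) and 60.7 CPM in cocultured (58.9 to 62.5) sensitive cells, and 44.1 CPM in cocultured (43.2 to 45.03) and 43.6 CPM in monocultured (42.9 to 44.4) resistant cells. Sensitive coculture stood above the other 3 populations, whose intervals overlap. In S cells RRM1 was at 92.2, 85.6, 59.5 and 60.1 CPM in that order, and in G2M cells at 121, 92.7, 60.6 and 61.3 CPM. By these deposited phases RRM1 per S cell was 0.651-fold in resistant over sensitive monoculture (0.599 to 0.710), against 0.863 (0.803 to 0.929) with thinned phase calls and 0.674 (0.620 to 0.733) with full-depth calls. The sensitive lineage of the coculture held 1.44-fold the level of the resistant one (1.35 to 1.53). The fold of coculture over monoculture in sensitive S cells was 0.928 (0.844 to 1.02), which counting error spans, and 1.20 (1.10 to 1.301) with thinned phase calls and 0.941 (0.856 to 1.04) with full-depth calls.

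The RRM2 UMIs per RRM1 UMI give the balance of the S-phase subunit and its partner on a scale that the total UMIs do not enter. In S cells by the deposited phases it was 1.246 in monocultured (1.12 to 1.39) and 1.47 in cocultured (1.38 to 1.57) sensitive cells, and 1.02 in cocultured (0.967 to 1.07) and 1.00 in monocultured (0.962 to 1.04) resistant cells. In G1 cells it was 0.0558, 0.178, 0.129 and 0.104, so sensitive monoculture had the lowest ratio of the 4 in G1 cells. Its place among S cells depended on the phase calls, since thinned calls gave 0.830 (0.751 to 0.918), 1.296, 0.874 and 0.901 in the same order and full-depth calls gave 1.15 (1.04 to 1.29), 1.41, 0.946 and 0.953. Sensitive coculture had the highest ratio under all 3 sets of calls. Its place above resistant coculture is a description only, since that contrast chose RRM2. Capture can differ between genes, so the ratio is to be read across populations and not as molecules per molecule.

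RRM2B, the alternative small subunit, was highest in sensitive monoculture, where RRM2 was lowest. Its level was 12.6 CPM in monocultured (11.9 to 13.3) and 9.08 CPM in cocultured (8.40 to 9.81) sensitive cells, and 9.21 CPM in cocultured (8.79 to 9.64) and 7.31 CPM in monocultured (6.99 to 7.64) resistant cells. The cocultured lineages did not differ beyond counting error and lay between the monocultures. In sensitive G1 cells it was at 13.1 CPM in monoculture and 9.90 CPM in coculture, a fold of 0.755 (0.669 to 0.851), and in G2M cells at 10.4 and 8.32 CPM, a fold of 0.798 (0.597 to 1.08). In S cells the values were 8.47, 8.08, 8.20 and 7.25 CPM, with overlapping intervals in all 4 populations, and a fold of 0.954 (0.695 to 1.33) in sensitive cells. The phase calls made anew gave 0.682 (0.549 to 0.847) on thinned cells and 0.712 (0.542 to 0.939) at full depth. RRM2 UMIs per RRM2B UMI over all cells numbered 1.38 in monocultured and 6.01 in cocultured sensitive cells, and 3.03 and 3.85 in cocultured and monocultured resistant cells.

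**Figure D4:**
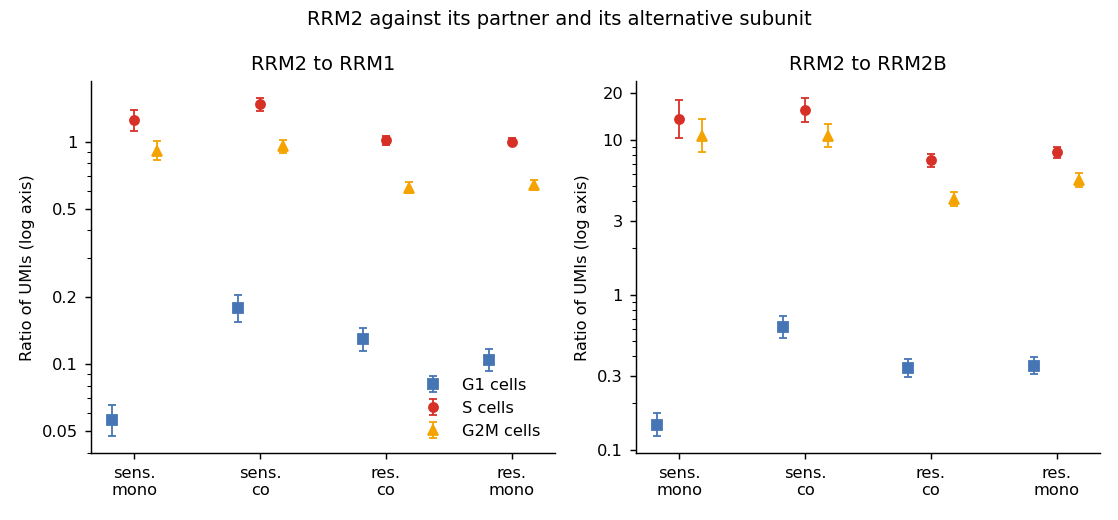
Ratio of RRM2 UMIs to RRM1 UMIs (left) and to RRM2B UMIs (right), on log axes, by population and phase with 95% counting intervals. In G1 cells (squares) both ratios are lowest in sensitive monoculture, at 0.0558 and 0.145, and highest in sensitive coculture, at 0.178 and 0.619.

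TYMS (chr18:657653-673578, plus strand), which methylates deoxyuridylate with a folate cofactor, was at 18.7 CPM in monocultured (17.9 to 19.6) and 48.3 CPM in cocultured (46.7 to 49.9) sensitive cells, and 54.2 CPM in cocultured (53.1 to 55.2) and 61.6 CPM in monocultured (60.6 to 62.5) resistant cells. All 4 intervals are separate, and sensitive coculture lay nearer to the resistant populations than to its own monoculture. In S cells by the deposited phases the values were 86.9, 80.3, 87.8 and 98.4 CPM, and the fold of coculture over monoculture in sensitive S cells was 0.923 (0.837 to 1.02). With thinned calls the values were 39.2, 59.4, 67.2 and 77.5 CPM, so monocultured sensitive cells were the lowest, and that fold was 1.51 (1.37 to 1.67), against 1.03 (0.933 to 1.15) with full-depth calls. Between the cocultured lineages TYMS lay the other way from RRM2 in S cells, at 0.914-fold in sensitive over resistant cells (0.860 to 0.971). In G1 cells TYMS was at 2.91 CPM in sensitive monoculture and 9.77 to 10.9 CPM in the other 3 populations, a fold of 3.47 (2.95 to 4.10) for coculture over monoculture.

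TK1 (chr17:76170172-76183314, minus strand), the thymidine kinase of the salvage route, was at 24.2 CPM in monocultured (23.2 to 25.2) and 50.4 CPM in cocultured (48.8 to 52.1) sensitive cells, and 41.1 CPM in cocultured (40.2 to 42.0) and 52.7 CPM in monocultured (51.9 to 53.6) resistant cells. Sensitive monoculture was the lowest and the interval of resistant monoculture overlaps that of sensitive coculture. In S cells by the deposited phases TK1 was at 106 CPM in monocultured and 98.5 CPM in cocultured sensitive cells, and at 79.5 and 97.5 CPM in resistant cells of coculture and monoculture. The resistant cells of the coculture were at 0.816-fold of their monoculture (0.786 to 0.847). Thinned calls gave 52.96 and 81.5 CPM in sensitive cells of monoculture and coculture and 63.8 and 80.4 CPM in resistant cells of coculture and monoculture, so the lowest population was another one. The TK1 fold of coculture over monoculture in sensitive S cells was 0.926 (0.847 to 1.01) with the deposited phases, 1.54 (1.41 to 1.68) with thinned calls and 1.005 (0.919 to 1.10) with full-depth calls. DTYMK (chr2:242615162-242626359, minus strand), which makes dTDP, was at 78.3 and 106.9 CPM in monocultured and cocultured sensitive cells and at 110.1 and 118 CPM in cocultured and monocultured resistant cells. In S cells its values were 139.5, 134, 133.5 and 143 CPM, with the resistant pair separate by their intervals (130.4 to 136.5 and 140.8 to 145.9), and the sensitive fold of coculture over monoculture was 0.962 (0.891 to 1.04). The phase calls made anew gave 1.23 (1.15 to 1.32) on thinned cells and 0.987 (0.916 to 1.06) at full depth.

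DUT (chr15:48623208-48635570, plus strand), the dUTPase that keeps uracil out of DNA, was at 164 CPM in monocultured and 195 CPM in cocultured sensitive cells, and 248 CPM in cocultured and 271 CPM in monocultured resistant cells, with separate intervals. In S cells by the deposited phases it was lowest in cocultured sensitive cells, at 303 CPM (295 to 311), against 359 CPM in their monoculture (344 to 373), 365 CPM in cocultured resistant cells (360.2 to 370.3) and 399 CPM in monocultured resistant cells (394.5 to 403). The S-cell fold of DUT for coculture over monoculture in sensitive cells was 0.845 (0.805 to 0.887) with the deposited phases, 1.11 (1.06 to 1.16) with thinned calls, where monocultured sensitive cells were the lowest at 229 CPM, and 0.876 (0.835 to 0.919) with full-depth calls. DCTPP1 (chr16:30434936-30441351, minus strand), which hydrolyses dCTP and its modified forms, was at 202, 207, 159 and 201 CPM over all cells. Cocultured resistant cells were the lowest in every phase, with 197 CPM in S cells against 249 CPM in resistant monoculture, a fold of 0.791 (0.773 to 0.810).

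SAMHD1 (chr20:35518632-35580296, minus strand), the dNTP hydrolase, had the fewest UMIs of the members in every population. Its level was 6.03 CPM in monocultured (5.55 to 6.54) and 7.63 CPM in cocultured (7.00 to 8.30) sensitive cells, and 6.11 CPM in cocultured (5.77 to 6.46) and 6.10 CPM in monocultured (5.81 to 6.40) resistant cells. Sensitive coculture was the one population that stood apart from the others. In S cells the intervals of sensitive monoculture (6.002 to 10.5) and sensitive coculture (6.25 to 8.91) overlap, at 8.01 and 7.49 CPM.

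Seen side by side in sensitive cells, 3 of the 9 genes were at least 1.5-fold higher in coculture over all cells, namely RRM2, TYMS and TK1, and 0 were that much lower, where 8.6% and 9.69% of 12326 genes were. RRM2 is counted among these 3 although its level in cocultured sensitive cells entered its choice. The median fold of the 9 was 1.37, against 0.959 for all genes. In S cells 0 of the 9 passed 1.5-fold in either direction, where 4.81% of 10197 genes were higher and 5.44% lower, and their median was 0.928 against 0.961. With phase calls made anew on thinned cells, RRM2, TYMS and TK1 passed it in S cells, at 1.87, 1.51 and 1.54, where 6.38% of 10723 genes were that much higher, and 0 were lower, where 7.46% were. With the full-depth calls 0 passed in either direction, where 4.95% of genes were higher and 5.78% lower. Thinned calls put all members but RRM2B above 1 in S cells, with intervals that span 1 for DCTPP1 and SAMHD1. In G1 cells RRM2, TYMS and TK1 passed it upwards, where 6.66% of genes did, and 0 passed it downwards, where 8.42% did. In G2M cells all but SAMHD1 were below 1, down to 0.685 for TK1 and 0.693 for TYMS, and 0 passed the threshold, where 4.5% of genes were higher and 5.95% lower.

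**Figure D5:**
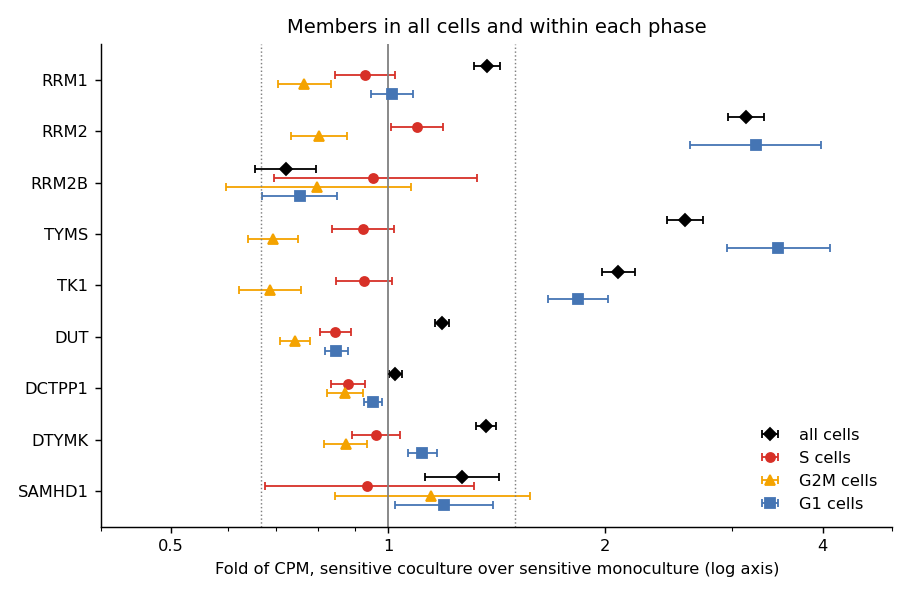
Fold of sensitive coculture over sensitive monoculture (log axis) for the 9 genes over all cells (diamonds) and within S (circles), G2M (triangles) and G1 (squares) cells, with 95% counting intervals, a solid line at 1 and dotted lines at 1.5-fold in each direction. The S-cell points lie between 0.845 and 1.10, whereas over all cells RRM2, TYMS and TK1 lie at 3.13, 2.58 and 2.08.

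Resistant over sensitive monoculture gave a different set, although it shares the sensitive monoculture library with the comparison above. Over all cells 5 of the 9 were at least 1.5-fold higher, where 11.6% of genes were: TYMS at 3.29, TK1 at 2.18, DUT at 1.65, RRM2 at 1.61 and DTYMK at 1.51. RRM2B was at least 1.5-fold lower, at 0.580 (0.540 to 0.624), where 18.5% of genes were. In S cells 0 were higher (8.48% of genes) and 2 were lower (13.2% of genes), namely RRM2 and RRM1. TYMS was at 1.13 there (1.04 to 1.23), DTYMK at 1.03 (0.961 to 1.10) and TK1 at 0.916 (0.848 to 0.991). These calls depended on the phases. With thinned calls TYMS (1.97) and TK1 (1.52) were higher, where 9.52% of genes were, and RRM2B (0.595) was lower, where 15.2% were, while RRM2 was at 0.936 and RRM1 at 0.863. With full-depth calls 0 were higher, where 8.59% of genes were, and RRM2 (0.556), SAMHD1 (0.614) and RRM2B (0.645) were lower, where 14.0% were, with RRM1 at 0.674.

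In resistant cells, for coculture over monoculture, 0 of the 9 passed 1.5-fold over all cells in either direction, where 3.82% of genes were higher and 0.692% lower, and the range was 0.780 (TK1) to 1.26 (RRM2B), against a median of 1.03 for all genes. TK1 and DCTPP1 stood near the low end of all genes, with 3.3% and 4.0% of genes at a lower fold. Of the 9, 3 were above 1, and DCTPP1 was at 0.792 (0.781 to 0.803). The values within S cells ran from 0.791 to 1.13, close to those over all cells.

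Most members varied with RRM2 across phases. Over the 12 groups of population and phase, log2(CPM + 1) of RRM2 had a Pearson r of 0.976 with TK1, 0.949 with RRM1, 0.940 with TYMS, 0.915 with DTYMK, 0.899 with DUT, 0.748 with DCTPP1, 0.708 with SAMHD1 and -0.43 with RRM2B. Outside the members, the genes with the highest r among 4678 were CENPM (0.991), a centromere protein, CLSPN (0.983), the checkpoint adaptor claspin, PPP5C (0.982), a protein phosphatase, CD3EAP (0.978), an RNA polymerase I subunit, and GGCT (0.978), an enzyme of glutathione turnover. CENPM in S cells was at 73.3 CPM in monocultured and 82.8 CPM in cocultured sensitive cells and at 58.3 and 61.6 CPM in cocultured and monocultured resistant cells. The groups share 3 libraries and the phase calls, so r is a description of these groups only.

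The pathways that feed deoxynucleotide synthesis were compared in the same way, as counts past 1.5-fold in sensitive cells, coculture over monoculture, over all cells, where 8.6% of all genes were higher and 9.69% lower and the median fold was 0.959. In purine synthesis 1 of 12 genes was higher and 0 lower, with a median fold of 1.14. PRPS2, which makes the ribose phosphate donor, was at 1.69 (1.53 to 1.87) and ADSS, an adenylate branch enzyme, at 1.46, while PRPS1, its paralogue, was at 0.828 and ATIC, the last enzyme of inosinate synthesis, at 0.824. In pyrimidine synthesis 0 of 6 passed in either direction, with a median of 1.10. CAD, which starts the pathway, was at 1.28 and CTPS1, a CTP synthase, at 1.17, with DHODH at 0.925 and CMPK1 at 0.819. In S cells the medians were 0.956 and 0.920, and PRPS2 was at 0.991 (0.778 to 1.27).

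In the folate cycle, which supplies the cofactor of TYMS, 3 of 10 genes past the UMI minimum were higher and 0 lower, with a median of 1.33, beside 8.6% and 9.69% of all genes and their median of 0.959. MTHFD1L, a mitochondrial formate-producing enzyme, was at 2.17 (1.85 to 2.54) and at 1.81 in S cells (1.21 to 2.78), and FPGS, which retains folates in the cell, was at 1.89 and at 1.48 in S cells. SHMT1, the cytosolic serine hydroxymethyltransferase, was at 0.691, and SHMT2, its mitochondrial form, at 1.10. In S cells 2 of the 10 folate genes were higher and 1 lower, where 4.81% and 5.44% of all genes were, and their median was 0.984. Among the salvage and phosphate transfer genes 3 of 22 were higher and 0 lower, with a median of 1.08. The nucleoside diphosphate kinase NME2 was at 1.81 and at 1.72 in S cells (1.498 to 1.97), and the purine salvage enzyme PNP was at 1.76 and at 1.01 in S cells. The adenylate kinases AK3 and AK4 were at 0.738 and 0.771. In S cells 1 of the 22 salvage and phosphate transfer genes was higher and 1 lower, with a median of 0.9245.

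Of the genes for breakdown and cleaning of nucleotides 0 of 12 were higher and 1 lower, with a median of 1.00. DERA, the deoxyribose phosphate aldolase, was at 0.566 over all cells (0.501 to 0.639) and at 0.509 in S cells, so its difference stayed within phase. NUDT1, which hydrolyses oxidized purine nucleotides, was at 1.33 over all cells and 0.899 in S cells, NT5C2 at 1.19 and NT5M at 0.809. The 12 regulators of the members had a median of 1.91, with 7 higher and 0 lower, where 8.6% and 9.69% of all genes were and the median was 0.959. The E2F target and repressor E2F7 was at 5.37 (3.90 to 7.54) and the cell cycle factor MYBL2 at 3.66 (3.47 to 3.86). In S cells they were at 1.67 (1.13 to 2.54) and 1.47 (1.34 to 1.63). The 12 regulators had a median of 1.31 there, against 0.961 for all genes. Of them 1 was higher and 0 lower, where 4.81% and 5.44% of all genes were. The checkpoint kinases ATR and WEE1 were at 1.07 and 1.18.

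The p53 targets, a list that bears on RRM2B, had a median of 0.807, with 1 of 14 higher and 3 lower, beside 8.6% and 9.69% of all genes and a median of 0.959. CDKN1A, the CDK inhibitor p21, was at 23.6 CPM in monoculture and 13.5 CPM in coculture, a fold of 0.571 (0.529 to 0.616), and BBC3, which encodes PUMA, was at 0.579 (0.523 to 0.640). In S cells CDKN1A was at 0.958 (0.752 to 1.23) and BBC3 at 1.21 (0.817 to 1.82). The p53 list there had 1 of 13 higher and 0 lower, beside 4.81% and 5.44% of all genes, with a median of 1.05. FDXR was at 1.03, and the death receptor gene FAS was at 2.45 (1.55 to 3.94), from 0.322 to 0.790 CPM. Of the S list without the members 27 of 38 genes were at least 1.5-fold higher over all cells, and of the G2M list 45 of 54. In S cells 0 of either list were higher or lower, where 4.81% and 5.44% of all genes were. S cells are commonly called from these very lists, so the counts in S cells are no independent measure. In the S list, CDCA7 and E2F8 had the highest folds over all cells, 3.77 and 3.48, and the uracil glycosylase UNG and the helicase subunit MCM4 the lowest, 0.897 and 0.977. The S-list medians were 1.80 over all cells and 0.944 in S cells, beside the 1.37 and 0.928 of the members.

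Between the lineages of the coculture, in S cells by the deposited phases, 5 of 61 genes of the 5 pathway lists from purine synthesis to breakdown and cleaning were at least 1.5-fold higher in sensitive than in resistant cells and 2 were lower, where 6.47% and 4.99% of all genes were. The higher ones were NT5C2, a nucleotidase, at 2.38 (1.73 to 3.25), AK3 at 1.66 (1.52 to 1.81), CAD at 1.65 (1.42 to 1.91), CTPS1 at 1.63 (1.47 to 1.79) and SHMT2 at 1.60 (1.46 to 1.76). The lower ones were ADSS at 0.565 (0.528 to 0.604) and NME4, a mitochondrial nucleoside diphosphate kinase, at 0.295 (0.278 to 0.313), from 230.8 CPM in resistant to 68.1 CPM in sensitive cells. NME4 lay outside the naming rule and was chosen after its values were seen.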

How the data were processed

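The authors aligned reads to GRCh37 with Cell Ranger 3.0.2 and deposited, for each library, a matrix of UMI counts by gene and barcode, with a table of cells that holds the lineage and culture group, cluster, cell cycle phase, a phase score and the percent of mitochondrial UMIs. The study's methods describe cell filters in Seurat, removal of scrublet doublets and a minimum of transgene UMIs. The deposited cells do not match the transgene minimum in full, since 67.8% of monocultured sensitive and 72.9% of monocultured resistant cells had a UMI of their transgene. In scrublet run here, 55, 59, 267 and 253 cells (monocultured and cocultured sensitive, cocultured and monocultured resistant) scored above 0.25. Scores of a new run can differ from the authors', so these counts cannot tell whether their doublet filter was applied. In coculture 100% of sensitive and of resistant cells had one, so monocultured and cocultured cells were not filtered alike. All cells were used as deposited. The gene list behind the deposited phase and score is not given in the sources used here. In the table of cells, 9 other annotation columns were not used. Rows with no symbol, 0.523 to 0.591% of UMIs, did not enter any sum.

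UMIs of the annotated cells were added up by population and phase and given as CPM. With 1 library per condition no model was fitted and cells were not used as replicates. Intervals are 95% exact Poisson for levels, exact conditional binomial for folds and ratios, and Clopper-Pearson for shares. Genes with at least 50 UMIs over both groups were counted as higher or lower at 1.5-fold. Phases were also called anew with 38 S and 54 G2M genes, leaving out the 3 members, against 100 control genes each in 24 expression bins, on cells thinned to 5000 UMIs. Later gene symbols in the lists were matched to those in the files for CENPU, PIMREG and JPT1, and UHRF1, CASP8AP2 and PECAM1 were not matched. Gene positions are from GENCODE on GRCh37, a later annotation than the authors'. Of the 9 members, 8 had a RefSeq promoter (GRCh38.p14 table).

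The members and lists were chosen with earlier results of these data known. All 9 members are named, with the 2 highest and the 2 lowest genes of each list by the fold of sensitive coculture over monoculture. The G2M list is an exception and is given as a count only. The 5 genes most like RRM2 with a mean of at least 20 CPM are named too, and FABP7 and the transgenes as gauges. The mVenus counts were 0 in both resistant populations and the mCherry counts 0 in both sensitive ones. In coculture 100% of the cells of each lineage had a UMI of their own transgene, so these counts may follow from how lineage was assigned. They are therefore no measure of RNA from the other lineage in the coculture. Alternatives changed the cells kept (transgene UMIs, scrublet score above 0.25, depth), scaling (TMM factors of edgeR 4.0.16 in R 4.3.3), denominator, averaging, phase calls, free RNA, pseudocount, UMI minimum and fold threshold. The scripts (Python 3.11.15, numpy 2.4.6, pandas 2.3.3, scipy 1.17.1, scanpy 1.11.5) were tested on simulated data.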

Additional observations from a re-analysis of the deposited data

Results flagged for a closer look

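For 6 members the fold of coculture over monoculture, over all cells, lay on opposite sides of 1 in the 2 lineages with both counting intervals clear of 1, and the difference between lineages was not tested. Of 12244 genes past the UMI minimum in both comparisons, 21.8% met the same rule, 8.0% with sensitive cells above 1, as for 5 members, and 13.8% with sensitive cells below 1, as for 1. The median fold of all genes was itself 0.959 in sensitive and 1.03 in resistant cells. TYMS was at 2.58 in sensitive and 0.880 in resistant cells, TK1 at 2.08 and 0.780, DTYMK at 1.37 and 0.932, DUT at 1.19 and 0.914, and DCTPP1 at 1.02 and 0.792. The sensitive fold of DCTPP1 was 0.990 with mitochondrial genes left out of the totals, which left 5 members on opposite sides, beside 22.1% of genes. RRM2B went the other way, at 0.721 in sensitive and 1.26 in resistant cells. RRM2 was at 3.13 and 0.993, the latter with an interval that spans 1 (0.959 to 1.03). The S-cell share differed alongside, from 5.29 to 22.2% in sensitive cells and from 28.6 to 25.9% in resistant cells. Within S cells the sensitive folds of TYMS, TK1, DTYMK, DUT and DCTPP1 were all below 1, as were the resistant ones, by the deposited phases. With thinned phase calls the sensitive ones were above 1, from 1.02 for DCTPP1 to 1.54 for TK1. Full-depth calls put TYMS and TK1 above 1 and DTYMK and DUT below 1. The intervals of TYMS, TK1 and DTYMK span 1 there, and that of DUT lies below 1.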

How the results depend on the processing

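Of the values that answer a comparison, 76 stayed within their counting interval or within 1.5 times their count under an alternative, 12 moved, and of the others 508 stayed and 110 moved. No fold past 1.5 changed direction, but the folds of all 9 members in S cells of sensitive coculture over monoculture crossed 1: RRM2 ranged from 0.970 to 1.87, TYMS from 0.852 to 1.51, TK1 from 0.841 to 1.54, DUT from 0.776 to 1.11, RRM1 from 0.905 to 1.20, DTYMK from 0.916 to 1.23, RRM2B from 0.682 to 1.03, DCTPP1 from 0.860 to 1.02 and SAMHD1 from 0.754 to 1.03. The RRM2 fold of sensitive coculture over monoculture, 3.13 over all cells and 1.10 in S cells, was 4.34 and 1.35 without the 10% deepest cells. It was 3.80 over all cells as a mean of per-cell CPM, and in S cells 1.87 with phases called anew on thinned cells and 0.970 where a deposited S score above 0.1 was required. The share from phases was 91.0% without the deepest cells and 78.0% with thinned calls. Between cocultured lineages, subtracting 10% resistant RNA moved the S-cell RRM2 fold from 2.08 to 2.26. At a threshold of 25% higher or 20% lower, 6 members were higher (17.3% of genes) and 1 lower (24.1% of genes) over all cells. At 1.5-fold, in cells with at least 2 transgene UMIs, 3 members were higher (8.76% of genes) and 1 was lower (RRM2B, 0.630, with 9.46% of genes). In S cells 3 members were at least 1.5-fold higher with thinned calls (6.38% of genes) and 0 with full-depth calls (4.95%). Calls and S-gene bins at full depth were chosen after seeing the data and gave 1.15 for RRM2 in S cells of sensitive coculture over monoculture, and 2.17 between cocultured lineages in the highest bin. Beyond the construction of each alternative, the cause was not tested. No paired analysis was possible because each condition was 1 library. The 176 S cells of sensitive monoculture limit its S-cell levels.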
